A study of Homo sapiens with 2 samples.

Results

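The TNF superfamily joins a set of ligands, named TNFSF, and the receptors that bind them, named TNFRSF, and 30 genes with such symbols were measured here among 17665 genes. Members were taken by symbol alone, as all rows of the table whose annotated symbol starts with TNFSF or TNFRSF and a digit. No member was picked by its own value, but the rule was set with earlier results of these data known. They comprise 12 ligand genes, 17 receptor genes and 1 antisense RNA gene, TNFRSF14-AS1, and the ligands include TNFSF12-TNFSF13, a read-through transcript of neighbouring genes. Each of the 30 was read by 1 row. Family genes that carry other symbols, such as FAS, CD40 and LTBR, fall outside the rule and are described as a separate list.

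Levels were compared between 1 control culture and 1 culture treated with acid at pH 6.4 and deoxycholic acid (pH 6.4 + DCA) of CP-A, a non-dysplastic cell line from Barrett's esophagus that was immortalized with human telomerase reverse transcriptase. Both cultures came from this same line, kept in medium supplemented with serum, EGF, pituitary extract, hydrocortisone and cholera toxin. Treated CP-A cells went through repeated exposures to medium acidified with hydrochloric acid and holding DCA, a secondary bile acid, with growth in basal medium between them. RNA was amplified and labelled with biotin by the WT Plus kit, and the labelled product was read on Clariom S human arrays. In these, several short probes of 1 colour report each gene. The question was how the expression profile of CP-A differs after exposure to acid and DCA.

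TNF superfamily ligands are mostly made as membrane proteins that can be shed by proteases, and they assemble as trimers that cluster their receptors. Receptors with a death domain can recruit FADD and caspases and start apoptosis, whereas receptors without one bind TRAF proteins and lead to the NF-kB and MAP kinase pathways. Many members are best known from lymphocytes, while the TRAIL receptors, the TWEAK receptor and TNF receptor 1 are widespread in epithelial cells.

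The values are log2 expression levels, and a difference is the level on the pH 6.4 + DCA array minus that on the control array. The control array had quartiles of 4.43, 6.52 and 9.37, and the treated array had quartiles of 4.45, 6.46 and 9.36. With 1 array per condition, no difference has a replicate check, no test or error can be given, and precision is limited by the number of arrays. Arrays are named by their labels, which no targeted gene on the arrays checks, and the study's RT-qPCR was not analysed here. A gene is called higher or lower only where it differed by 2-fold or more. In such bulk RNA, fewer cells of a type and less RNA per cell cannot be told apart.

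Most TNF superfamily genes differed little between the arrays. TNFRSF9 and TNFRSF10D were higher after treatment, TNFRSF12A was lower, and the remaining 27 members stayed under 2-fold. The 2 higher members are 6.67% of 30, beside 2.51% of all genes, and the 1 lower member is 3.33%, beside 4.12% of all genes. The share of lower members is near the background and is not a result about the family, and the share of higher members rests on 2 genes. At 1.5-fold, 6 members (20.0%) were higher, beside 10.6% of all genes, and 3 members were lower, beside 11.8% of all genes, which is again near the background.

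The differences of the 30 members had a median of -0.07 and quartiles of -0.41 and 0.39. Over all 17665 genes the quartiles were -0.31 and 0.30. A difference above 0 was found in 13 members and one below 0 in 17. Ligands had a median difference of -0.07 and receptors one of -0.02. The differences ran from -0.62 to 0.99 in the 12 ligands and from -1.30 to 1.78 in the 17 receptors, and the ranges were not tested against each other.

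**Figure D1:**
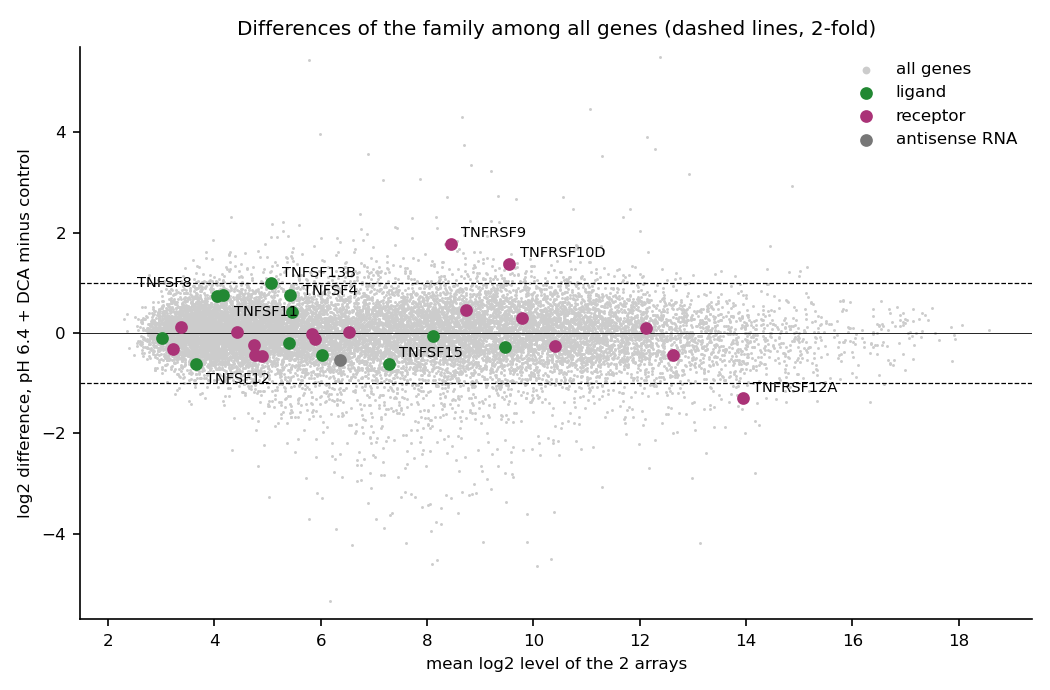
Each point is 1 gene, with the mean log2 level of both arrays on the x axis and the log2 difference, pH 6.4 + DCA minus control, on the y axis. Grey points are all 17665 genes, coloured points are the 30 TNF superfamily genes, and dashed lines mark 2-fold. TNFRSF9 (1.78), TNFRSF10D (1.38) and TNFRSF12A (-1.30) lie outside the lines.

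Signal strength differed widely among the members, and it bears on how far each difference can be read. On the control array 17 of 30 members lay under the array's median and 7 under its lower quartile. Ligands were mostly in the dim range, with 9 of 12 under the median, whereas 9 of 17 receptors were over it. Over all genes, the SD of the differences was 0.389 among genes of the lowest mean level, a bin which held 7 members, and 0.575, 0.713 and 0.613 in the next bins of equal size, which held 12, 5 and 6 members. These SDs describe the spread among genes on 1 pair of arrays and not the spread among cultures.

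**Figure D2:**
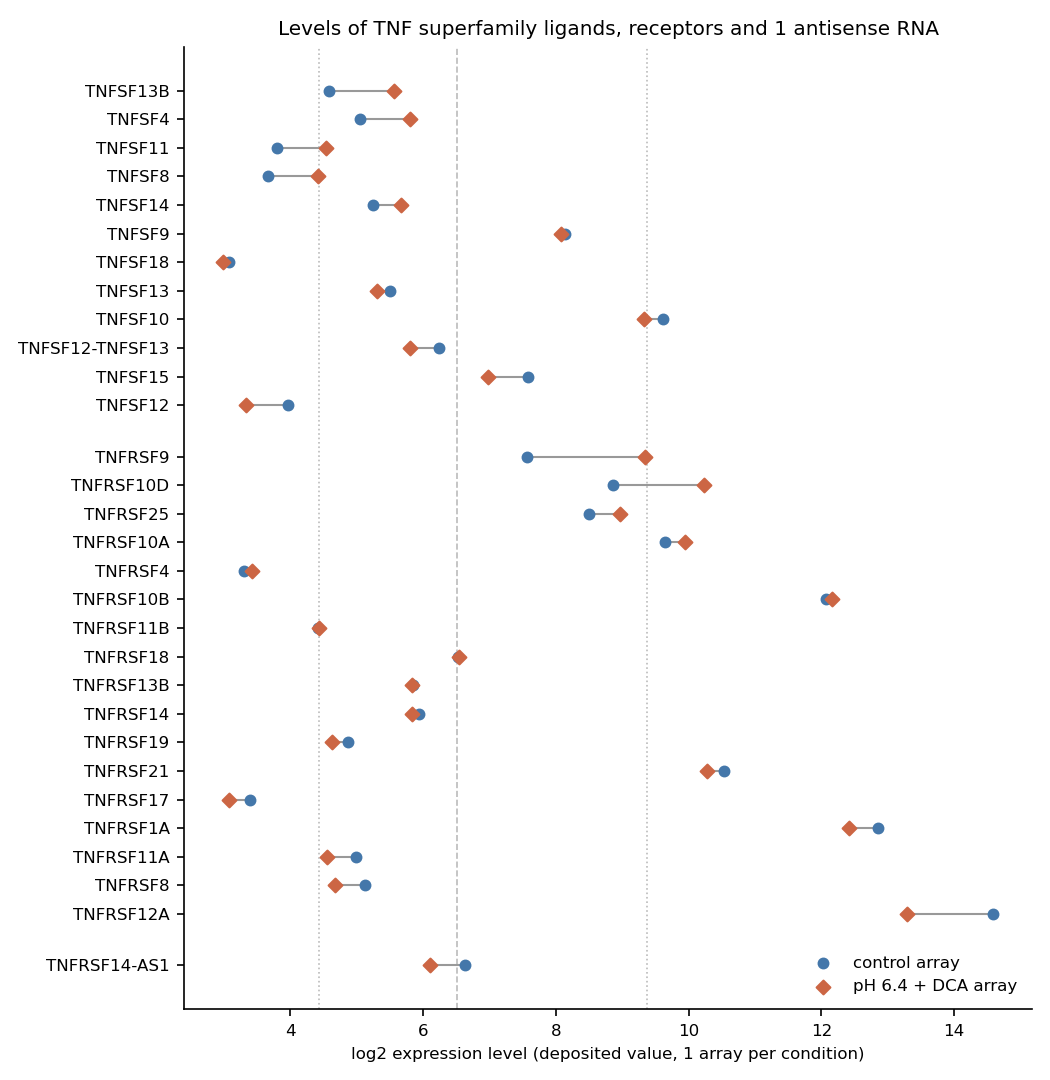
The log2 level of each of the 30 members is shown on the control array and on the pH 6.4 + DCA array, with a line joining the points of 1 gene. Vertical lines give the median (6.52) and the quartiles (4.43 and 9.37) of the control array, and TNFRSF9, TNFRSF10D and TNFRSF12A have the longest joining lines.

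TNFRSF9, also called CD137, is a costimulatory receptor of activated T cells that has no death domain and signals through TRAF proteins. Its level (TC0100012734.hg.1) was 7.56 on the control array and 9.34 on the treated array. It was thus over the median of the array in both conditions. The difference of 1.78 equals 3.44-fold and ranked 55 from the top among 17665 genes. It ranged from 1.63 to 1.83 over the ways of processing that were tried, all past 2-fold. TNFSF9, its ligand, which antigen-presenting cells display, read 8.13 and 8.08, a difference of -0.05.

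The promoter of TNFRSF9 is printed because this receptor had the largest difference of the family and is a gene known to respond to NF-kB in lymphocytes. The sequence is RefSeq's for build GRCh38.p14, the 250 bases before the annotated start on the minus strand, chr1:7940840-7941089, written 5′ to 3′. Capitals mark matches to the 10-base NF-kB consensus, which overlap here, and to the 7-base AP-1 motif TGANTCA, with both strands searched.
TNFRSF9: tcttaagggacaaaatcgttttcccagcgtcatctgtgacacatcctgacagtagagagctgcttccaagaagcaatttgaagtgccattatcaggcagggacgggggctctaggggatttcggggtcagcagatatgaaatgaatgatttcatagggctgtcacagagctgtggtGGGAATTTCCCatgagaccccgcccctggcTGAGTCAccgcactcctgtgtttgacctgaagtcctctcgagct
The NF-kB matches run from -74 to -65 and from -73 to -64 before the start, and the AP-1 match from -44 to -38. An NF-kB match stood in the promoters of 14.5% of 27305 RefSeq genes and an AP-1 match in 8.06%, so such letters are common and do not show binding.

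Among the 30 members, 20 were matched to a RefSeq promoter, TNFRSF10D and TNFRSF12A not among them. Of these, 7 held an NF-kB match, namely TNFRSF9, TNFRSF14, TNFRSF19, TNFSF11, TNFSF13, TNFSF14 and TNFSF18, and 3 held an AP-1 match, namely TNFRSF9, TNFSF14 and TNFSF15. The members with an NF-kB match other than TNFRSF9 differed by between -0.24 (TNFRSF19) and 0.75 (TNFSF11).

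TNFRSF10D was the other higher receptor. It is a TRAIL receptor with a truncated death domain that binds TRAIL without passing on the death signal, and it is therefore called a decoy. Its level (TC0800009872.hg.1) was 8.86 in control cells and 10.24 after treatment. The difference of 1.38 equals 2.61-fold and ranked 136 from the top among all genes. Under the ways of processing that were tried it ranged from 1.32 to 1.40.

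The death-domain receptors of the same ligand differed much less. TNFRSF10A, or DR4, read 9.64 and 9.94, a difference of 0.31. TNFRSF10B, or DR5, was among the brightest members and read 12.07 and 12.16, a difference of 0.09. Both transmit apoptosis through FADD and caspase-8. TNFRSF11B, or osteoprotegerin, is a soluble receptor that binds TRAIL and also RANKL, and it read 4.41 and 4.43, at the dim end of the arrays. TNFSF10, the ligand TRAIL itself, read 9.61 and 9.33, a difference of -0.28. Of the 4 TRAIL receptors measured, the one lacking a full death domain in the membrane was thus the one past 2-fold. TNFRSF10A, TNFRSF10B and TNFRSF10D are related in sequence, and their probe sequences were not examined here.

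TNFRSF12A was the lower member. It encodes Fn14, a small receptor that growth factors induce and that binds TWEAK, the product of TNFSF12. Its level (TC1600006652.hg.1) was 14.59 on the control array and 13.29 on the treated array. No other member was brighter on the control array. The difference of -1.30 equals 2.47-fold lower and ranked 414 from the bottom among all genes, with a range of -1.31 to -1.21 over the ways of processing. TNFSF12 read 3.96 and 3.34, a difference of -0.62, with the control value under the lower quartile of its array.

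Other receptors with a death domain were also bright. TNFRSF1A, the main receptor of TNF, read 12.85 and 12.41, a difference of -0.44. TNFRSF21, or DR6, read 10.54 and 10.27, a difference of -0.26. TNFRSF25, or DR3, which binds TNFSF15, read 8.50 and 8.96, a difference of 0.46. All 3 were over the median of both arrays and under 1.5-fold.

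The next receptors were dim, under the median of the control array. TNFRSF11A, or RANK, the receptor through which RANKL drives osteoclasts, read 4.99 and 4.54, a difference of -0.44. TNFRSF19, or TROY, is an orphan-like receptor of embryonic epithelia, and it read 4.87 and 4.62. TNFRSF14, or HVEM, which binds LIGHT and the inhibitory receptor BTLA, read 5.94 and 5.83. The antisense RNA gene TNFRSF14-AS1 overlaps it and read 6.64 and 6.10, a difference of -0.53. Whether the probes of this pair separate the strands is not stated.

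The remaining receptors serve lymphocytes and were near or under the median of the arrays. TNFRSF4 (OX40), a costimulatory receptor of T cells, read 3.30 and 3.43. TNFRSF18 (GITR), known from regulatory T cells, read 6.52 and 6.53. TNFRSF8 (CD30), a marker of activated lymphocytes, read 5.12 and 4.67, a difference of -0.45. The B cell receptors for BAFF and APRIL were dim as well. TNFRSF13B (TACI) differed by -0.02 and TNFRSF17 (BCMA) by -0.31, the latter from 3.38 to 3.07, under the lower quartile of both arrays.

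No ligand passed 2-fold, beside 2.51% of all genes higher and 4.12% lower. Among only 12 genes this is near the background. Past 1.5-fold upward were 4 of 12 (33.3%), beside 10.6% of all genes. TNFSF13B, or BAFF, a survival factor for B cells, read 4.57 in control cells and 5.56 after treatment. Its difference of 0.99 equals 1.98-fold, just under the threshold. TNFSF4 (OX40 ligand) read 5.04 and 5.81, a difference of 0.76. TNFSF11 (RANKL) read 3.79 and 4.54, and TNFSF8 (CD30 ligand) read 3.67 and 4.41. All 4 lay under the median of the control array, and TNFSF11 and TNFSF8 lay under its lower quartile. With 32 added on the linear scale, which damps dim signals, the differences fell to 0.51 for TNFSF13B, 0.44 for TNFSF4, 0.27 for TNFSF11 and 0.25 for TNFSF8.

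On the other side, 2 of 12 ligands (16.7%), TNFSF15 and TNFSF12, were past 1.5-fold downward, beside 11.8% of all genes. TNFSF15, or TL1A, known from endothelium and the inflamed gut, read 7.58 and 6.97, a difference of -0.61. It was 1 of 3 ligands over the median of the control array, with TNFSF9 and TNFSF10. TNFSF12 differed by -0.62, and by -0.17 with 32 added. The neighbouring TNFSF13, or APRIL, which acts on plasma cells, read 5.51 and 5.31, and the read-through TNFSF12-TNFSF13 read 6.23 and 5.79. These 3 genes overlap in sequence, so how signal divides among them is uncertain. TNFSF14, or LIGHT, read 5.25 and 5.66, and TNFSF18, the ligand of GITR, read 3.07 and 2.98.

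Known ligands and receptors were then set side by side. Both partners were measured in 19 of 26 listed pairs, which share members with each other. In 0 of the 19 were ligand and receptor both past 2-fold, which was already set, since no ligand of these pairs passed it. In 3 the receptor was past it and the ligand was not, namely TNFSF9 with TNFRSF9, TNFSF10 with TNFRSF10D and TNFSF12 with TNFRSF12A. Differences had the same sign in 7 pairs and opposite signs in 12. Some of these signs rest on differences near 0, such as -0.05 for TNFSF9 and 0.02 for TNFRSF11B. The sign of TNFRSF11B turned under quantile normalization (-0.007) and with the lowess trend removed (-0.011). Among pairs with opposite signs, TNFSF8 differed by 0.74 and its receptor TNFRSF8 by -0.45, TNFSF11 by 0.75 and TNFRSF11A by -0.44, and TNFSF15 by -0.61 and TNFRSF25 by 0.46. For BAFF, the ligand differed by 0.99 and the analysed receptors TNFRSF13B and TNFRSF17 by -0.02 and -0.31, while TNFRSF13C was not analysed.

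**Figure D3:**
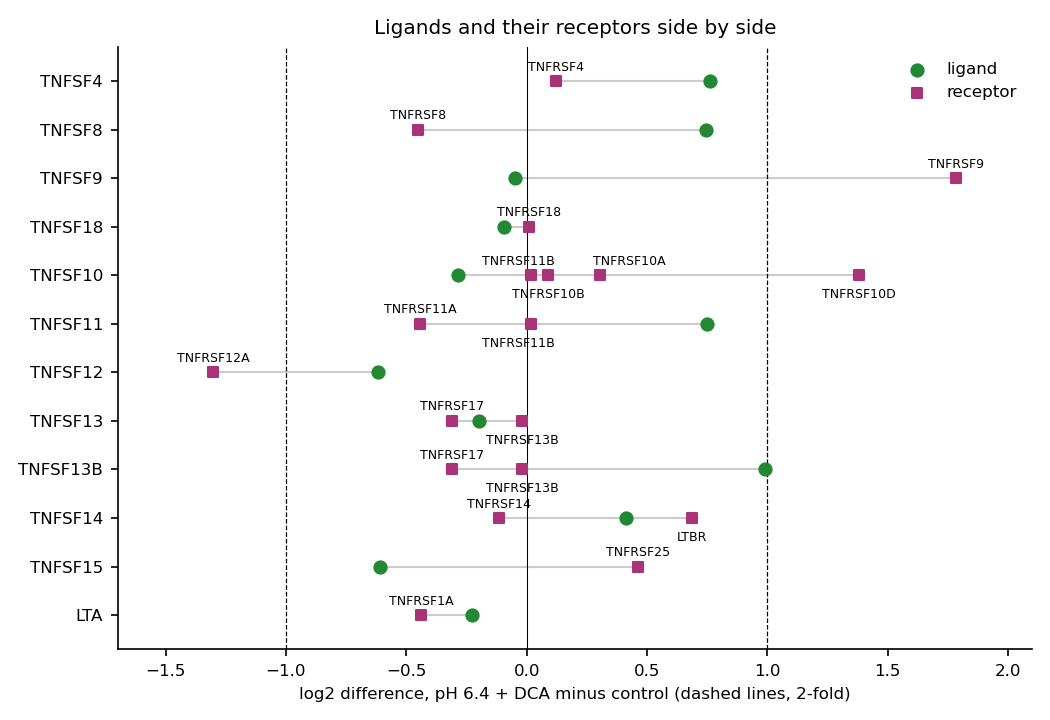
Each row is 1 ligand with the receptors known to bind it, and the x axis is the log2 difference, pH 6.4 + DCA minus control. Green circles are ligands, magenta squares are receptors and dashed lines mark 2-fold. All ligands lie inside the lines, and 3 receptors (TNFRSF9, TNFRSF10D and TNFRSF12A) lie outside them.

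Family genes with other symbols were also under 2-fold. Of 5 such ligands measured, 0 passed 2-fold in either direction, and the largest difference was 0.25 for CD70, the ligand of the T cell receptor CD27. TNF itself and CD40LG were not among the genes analysed, so no value is given for them. FASLG, the ligand of FAS, differed by -0.24 and LTA, or lymphotoxin alpha, by -0.23. Of 8 such receptors, 0 passed 2-fold. LTBR, the receptor of lymphotoxin and LIGHT, read 10.26 and 10.94, a difference of 0.69. FAS, a death receptor, read 10.68 and 10.45, a difference of -0.22.

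The proteins below the receptors were read in lists by role. Of 15 adaptors and ubiquitin ligases measured, 1 was higher and 1 was lower (6.67% each), beside 2.51% and 4.12% of all genes. Shares of 1 gene each are not a result about the list, whose median was 0.07. TNFAIP3, or A20, which NF-kB induces and which edits ubiquitin to end the signal, read 10.48 and 12.13. Its difference of 1.66 ranked 71 from the top. SHARPIN, a subunit of the linear ubiquitin ligase complex LUBAC, read 10.28 and 9.13, a difference of -1.15. The other LUBAC subunits, RNF31 and RBCK1, differed by -0.74 and -0.72.

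Of 7 death pathway genes, 0 were higher and 1 was lower, beside 2.51% and 4.12% of all genes. The lower share rests on 1 gene, and the list median was 0.04. CASP10, an initiator caspase recruited by death receptors, read 7.10 and 5.72, a difference of -1.38. With 32 added its difference was -0.99955, just under 2-fold, and no gene of this list passed. CASP8, its close relative, differed by 0.44, and CFLAR, which blocks caspase-8 activation, by 0.60. Among 7 kinases and partners that lead to NF-kB, 0 passed 2-fold, and CHUK, or IKK alpha, had the largest difference, from 6.84 to 7.67 (0.83). IKBKG, or NEMO, the regulatory partner of that kinase, differed by -0.78.

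Of 9 NF-kB subunits and inhibitors, 1 was higher and 0 were lower, beside 2.51% and 4.12% of all genes. The higher share rests on 1 gene, and the list median was 0.36. The higher gene was NFKBIA, the inhibitor that NF-kB itself induces, which read 10.12 and 11.19, a difference of 1.07. Of 13 genes known to be induced by TNF, 4 (30.8%) were higher and 0 were lower, beside 2.51% and 4.12% of all genes. Their median was 0.72, beside a median of all genes of 0.00. The list was chosen with earlier results of these data known, and a response to TNF was not tested. TNFAIP6, a hyaluronan-binding protein of inflammation, read 5.10 and 8.67, a difference of 3.57. CCL20, a chemokine for lymphocytes and dendritic cells, read 11.33 and 14.51, a difference of 3.18. CXCL8, a neutrophil chemokine, differed by 1.20, and by 0.94, under 2-fold, with 32 added. TNIP1, a partner of A20, differed by 1.19. The list was not of 1 direction, since IER3 differed by -0.90 and ICAM1 by -0.68.

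**Figure D4:**
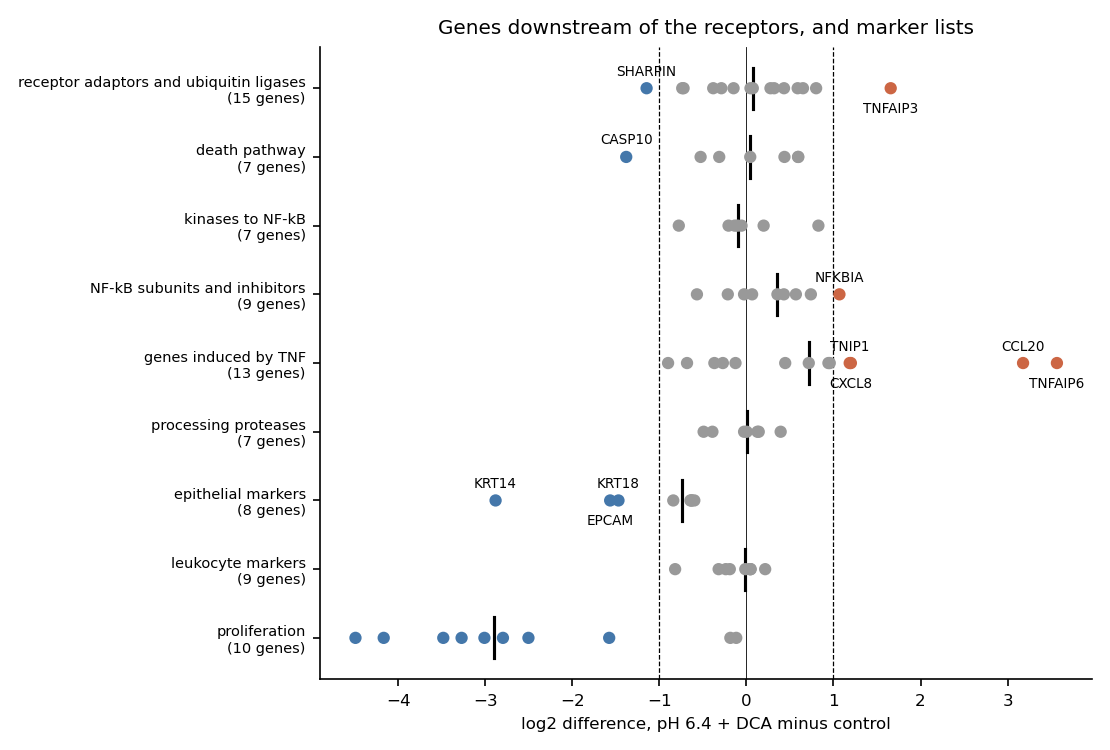
Each row is 1 gene list and each point 1 gene, with the log2 difference, pH 6.4 + DCA minus control, on the x axis. Orange points are genes at least 2-fold higher, blue points genes at least 2-fold lower, and black bars are list medians. The median was 0.72 for genes induced by TNF and -2.91 for proliferation genes.

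NF-kB matches of 3 higher genes that act as negative regulators of the pathway, TNFAIP3, NFKBIA and TNIP1, are shown with that of TNFRSF9, so that their letters can be compared. Each is a 30-base stretch of a RefSeq promoter in build GRCh38.p14, with the match in capitals. The stretches lie at chr1:7940894-7940923 on the minus strand for TNFRSF9, chr6:137867188-137867217 on the plus strand for TNFAIP3, chr14:35404811-35404840 on the minus strand for NFKBIA and chr5:151081057-151081086 on the minus strand for TNIP1.
TNFRSF9: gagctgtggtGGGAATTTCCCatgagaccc
TNFAIP3: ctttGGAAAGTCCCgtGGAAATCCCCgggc
NFKBIA: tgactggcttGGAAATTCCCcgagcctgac
TNIP1: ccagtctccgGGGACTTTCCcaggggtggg
TNFAIP3 held separate matches from -67 to -58 and from -55 to -46, NFKBIA 1 from -81 to -72 and TNIP1 1 from -42 to -33. In the lists of adaptors, NF-kB subunits and TNF-induced genes, a match stood in 5 of 6 promoters of genes at least 2-fold higher and in 11 of 25 promoters of the others. The matches of CXCL8 (-17 to -8) and CCL20 (-79 to -70) are counted among the higher genes but not printed. These lists hold genes known as NF-kB targets, so the counts are not independent of the motif, and binding was not tested.

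Of 7 proteases that shed or process family members, 0 passed 2-fold. ADAM17, which sheds TNF and its receptors, had the largest difference, from 11.27 to 10.78, or -0.49.

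Markers of cell state and cell type were read beside these values. Of 10 proliferation genes, 8 were lower, beside 4.12% of all genes, with a median of -2.91. They were the mitotic genes PLK1 (-4.49), CDC20 (-4.17), BUB1 (-3.27), CCNB1 (-3.01), AURKB (-2.51) and BIRC5 (-1.58), the proliferation marker gene MKI67 (-3.48) and TOP2A (-2.80), which encodes a topoisomerase of dividing cells. Of 8 epithelial markers, 3 were lower, beside 4.12% of all genes, namely KRT14 (-2.88), EPCAM (-1.57) and KRT18 (-1.47). All 8 were at least 1.5-fold lower, beside 11.8% of all genes, with a list median of -0.74. The smallest difference was that of KRT5, 1.52-fold lower, and this count was not repeated under the other scalings. The control levels of the list ran from 12.2 to 17.1, over the upper quartile of the array. Of 9 leukocyte markers, 0 passed 2-fold, and 3 were under the lower quartile of both arrays. In control cells their levels spanned 3.82 to 10.2 and after treatment 3.87 to 10.4, with the macrophage protein gene CD68, which many cell types express, at the top. PTPRC, or CD45, which defines leukocytes, read 5.03 and 5.07. The largest difference of the list was that of CSF1R, a receptor of macrophages, at -0.82. Of 7 fibroblast and endothelial markers, 1 was higher, beside 2.51% of all genes. It was LUM, from 4.10 to 5.28 (1.18), and the list median was -0.25. The part of proliferation, of cell type and of RNA quality in the family's differences was not tested.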

How the data were processed

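RNA of CP-A cells was measured on 1 Clariom S human array per condition. The deposited values are log2 expression levels, which the authors made with Transcriptome Analysis Console (4.0, from the submitters' processing notes). Background correction, summarization, normalization and genome build: not given in the sources used here. It is also not stated whether the array RNA came from nocodazole-treated cells, a step described for RT-qPCR.

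Values were used as deposited. Of 21448 rows, 17709 had 1 gene symbol in the platform annotation, 0 had several and 3739 had none. The row with the highest mean was kept per gene and Y-linked genes were left out. Differences were pH 6.4 + DCA minus control, with the 2-fold threshold of the study's methods and no test. Every member is named by role, and in each other list every gene past 2-fold or, where none passed, the gene with the largest difference; further genes of the lists were chosen after their values were seen. Members and lists were chosen with earlier results of these data known. TNFRSF1B, TNFRSF6B, TNFRSF10C and TNFRSF13C, and some genes of the other lists, were not analysed here.

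The other settings were median centring, quantile normalization, removal of a lowess trend (span 0.3), 32 added on the linear scale, leaving out rows under the 25th percentile, the mean of a gene's rows, and thresholds of 1.5-fold and 3-fold. Scripts were tested on simulated data. Python 3.11.15, numpy 2.4.6, pandas 2.3.3, statsmodels 0.14.6 and matplotlib 3.10.9 were used.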

Additional observations from a re-analysis of the deposited data

How the results depend on the processing

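TNFRSF9, TNFRSF10D and TNFRSF12A kept their direction and stayed past 2-fold under every other scaling that was run. The filter and the mean of a gene's rows could not change their differences, since each has 1 row and was bright enough to be kept. The counts of members moved with the threshold alone. At 1.5-fold, 6 members were higher and 3 lower, and at 3-fold 1 was higher and 0 were lower. The counts were also 2 and 1 without the antisense RNA and the read-through, a setting chosen after the data were seen. No direction of a called value reversed. Adding 32 on the linear scale moved the differences of dim members most. It took CASP10 (-0.99955), CXCL8 (0.94) and LUM (0.53) under 2-fold. With rows under the 25th percentile left out, 23 members remained among 13403 genes. With 1 array per condition, no setting stands in for a replicate, and every sign rests on the sample labels.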

Other observations

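Genes of the family that neighbour each other in RefSeq's gene order were read together, a view chosen after the values were seen. The TRAIL receptor genes TNFRSF10B, TNFRSF10D and TNFRSF10A are consecutive among the measured genes, with differences of 0.09, 1.38 and 0.31. TNFSF15 and TNFSF8 are also neighbours and differed by -0.61 and 0.74, and TNFSF18 and TNFSF4 by -0.09 and 0.76. The neighbours TNFRSF18 and TNFRSF4 differed by 0.01 and 0.12, and the overlapping TNFSF12, TNFSF12-TNFSF13 and TNFSF13 by -0.62, -0.44 and -0.20. TNFRSF14-AS1 and TNFRSF14, which also overlap, differed by -0.53 and -0.12. Neighbours of the family thus had the same sign in some places and opposite signs in others.

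The 20 measured genes nearest TNFRSF9, 10 on each side, had a median difference of 0.05, and its direct neighbours UTS2 and PARK7 differed by -0.23 and 0.17. Around TNFRSF10D the median was 0.23, with 1 of 20 genes higher and 1 lower. Around TNFRSF12A the median was -0.10, with 3 of 20 genes lower, and its neighbours CLDN6 and HCFC1R1 differed by 0.17 and -0.74. Around TNFSF13B the median was 0.38, and its neighbour ABHD13 differed by 0.86.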
